A study of Mus musculus with 15 samples.

Results

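Clasp1, Clasp2 and Clip1 encode proteins that bind the growing plus ends of microtubules, and their splicing was followed in skeletal muscle of a mouse model of myotonic dystrophy type 1. The genes were chosen by the difference in splicing between induced and control muscle that earlier results of these data had shown in Clasp1 and Clip1. That difference is therefore described here without a test, and the tests on these genes use contrasts that did not enter the choice. Induced against control is tested only for a list of other microtubule genes, made with earlier results known. All events of the 3 genes were taken, whatever their type, which gave 49 of the 39123 events in the table. Of these, 18 lie in Clasp1, 17 in Clasp2 and 14 in Clip1, and 46 had a value in all 15 libraries.

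Per the labels, induced mice carried TREDT960I-HOM and MDAFrtTA and received doxycycline (dox), which switches on a transcript with an expanded CUG repeat, from postnatal day 1. The no-dox controls had the same genotype without dox, and the dox controls had TREDT960I-HOM alone with dox, so that every mouse carried the repeat transgene. Muscle was collected at 6, 12 and 20 weeks of age, with 2 induced libraries, 2 no-dox libraries and 1 dox control at each age, which makes 6 induced and 9 control libraries. Gastrocnemius gave 10 libraries and quadriceps 5, of which 2 were induced. All libraries but 1, a no-dox library at 6 weeks, came from females. Neither the promoter that drives MDAFrtTA nor the number of animals behind a library is given in the labels.

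CLASP1 and CLASP2 are related proteins that keep shrinking microtubules from disassembling and help them to regrow. CLIP1, also called CLIP-170, tracks plus ends through its CAP-Gly domains, and the CLASPs were first found as proteins that bind CLIPs. In muscle fibres, CLASP-bound microtubules are captured near acetylcholine receptor clusters at the neuromuscular junction. In myotonic dystrophy type 1, RNA with an expanded CUG repeat binds the muscleblind-like splicing factors, and many transcripts then show splice forms typical of immature muscle.

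The values are the deposited percent spliced in (PSI), a fraction from 0 to 1. For a skipped exon it is the share that include the exon among transcripts with both flanking exons of its event. In the other types (first and last exons, splice sites, mutually exclusive pairs) PSI counts 1 of the competing forms, and which form is not stated here. No read counts accompany it, so the depth behind a value is unknown. Each library held between 34416 and 36959 events, and Pearson's r between libraries across events ran from 0.943 to 0.968. Of 12 skeletal muscle genes, 11 had an event with a value in every library, and Tnnt3 did not. The same held for 6 of 12 genes of other cells (Pecam1, Ptprc, Plin1, Mbp, Pdgfra and Myh11), and the table holds no expression levels. In whole muscle, a change of PSI within fibres and a change in the mix of cells cannot be told apart.

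A first-exon event of Clasp2 spanned the widest PSI range of any member over the libraries, and the promoters they could start from are therefore shown first. RefSeq's GRCm38.p6 table holds 3 start sites for Clasp2, and each window below spans 250 bases before to 50 bases after a start on the plus strand of chromosome 9. Capitals mark the E-box CAGCTG, which reads the same on both strands.
Clasp2 chr9:113741223-113741522: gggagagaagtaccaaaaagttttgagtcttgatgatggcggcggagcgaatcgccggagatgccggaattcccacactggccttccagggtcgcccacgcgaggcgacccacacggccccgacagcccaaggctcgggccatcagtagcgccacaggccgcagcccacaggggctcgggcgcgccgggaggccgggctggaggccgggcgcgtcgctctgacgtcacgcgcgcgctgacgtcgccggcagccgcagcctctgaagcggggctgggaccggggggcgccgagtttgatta
Clasp2 chr9:113793080-113793379: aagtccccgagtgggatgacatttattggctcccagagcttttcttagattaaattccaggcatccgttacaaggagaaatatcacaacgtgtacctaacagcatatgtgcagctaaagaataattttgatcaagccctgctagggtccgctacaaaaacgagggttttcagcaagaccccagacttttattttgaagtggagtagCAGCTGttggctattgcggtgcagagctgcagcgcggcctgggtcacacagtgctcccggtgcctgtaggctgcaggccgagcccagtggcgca
Clasp2 chr9:113812336-113812635: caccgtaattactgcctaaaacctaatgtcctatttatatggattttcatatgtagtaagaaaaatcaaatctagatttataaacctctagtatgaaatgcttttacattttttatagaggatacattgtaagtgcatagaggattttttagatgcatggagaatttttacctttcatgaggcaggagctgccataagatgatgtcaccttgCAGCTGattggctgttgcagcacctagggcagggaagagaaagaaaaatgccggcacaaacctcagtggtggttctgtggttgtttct
The windows differ in base composition. The first holds 70.0% G and C and 37 CpG dinucleotides, the second 50.7% and 11, and the third 37.7% and 2. The median of all 32851 windows of that table was 52.7% G and C and 7 CpG. The E-box was found once in the second window and once in the third, and 16.3% of all windows held it. The event names give transcripts that the sources used here do not pair with these starts, so no start was assigned to an event. The single Clip1 window (chr5:123684312-123684611, minus strand) held 71.7% G and C and 35 CpG, and no window was matched for Clasp1.

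The Clasp1 exon of 24 nt (chromosome 1, 118541675 to 118541698, plus strand, mm10) has the length of 8 codons. It lies 2305 bases after the preceding exon of its event and 1403 bases before the next. Its inclusion at 6 weeks was 0.16 and 0.17 in no-dox muscle, 0.27 in the dox control, and 0.27 and 0.60 in induced muscle. At 12 weeks it was 0.22 and 0.26 without dox, 0.16 in the dox control, and 0.58 and 0.67 in induced muscle. At 20 weeks it was 0.20 and 0.14 without dox, 0.16 in the dox control, and 0.46 and 0.27 in induced muscle. Both induced libraries at 12 weeks were high, while at 6 and at 20 weeks 1 induced library lay at the top of the control range. The mean was 0.475 ± 0.173 (SD, n = 6) with induction and 0.193 ± 0.047 (SD, n = 9) in the controls, a difference of 0.282. In 4 of 6 induced libraries the value was above all controls.

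The Clasp1 exon of 48 nt (chromosome 1, 118512175 to 118512222) has the length of 16 codons and ends 29452 bases before the 24-nt exon. Its difference had the opposite sign. Its inclusion at 6 weeks was 0.58 and 0.56 in no-dox muscle, 0.72 in the dox control, and 0.58 and 0.36 in induced muscle. At 12 weeks the values were 0.71 and 0.83 without dox, 0.61 in the dox control, and 0.46 and 0.31 in induced muscle. The 20-week values were 0.72 and 0.67 without dox, 0.73 in the dox control, and 0.54 and 0.46 in induced muscle. Every induced library except replicate 1 at 6 weeks lay below all 9 controls. The mean was 0.452 ± 0.103 (SD, n = 6) with induction and 0.681 ± 0.086 (SD, n = 9) in the controls, a difference of -0.229.

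The Clip1 exon of 6 nt (chromosome 5, 123581592 to 123581597, minus strand) has the length of 2 codons. It lies between introns of 1122 and 1467 bases. Control muscle mostly skipped it. The values at 6 weeks were 0.05 and 0.05 without dox, 0.03 in the dox control, and 0.16 and 0.52 in induced muscle. At 12 weeks they were 0.04 and 0.10 without dox, 0.11 in the dox control, and 0.23 and 0.38 in induced muscle. At 20 weeks they were 0.04 and 0.07 without dox, 0.08 in the dox control, and 0.14 and 0.17 in induced muscle. Every induced library lay above all 9 controls, the lowest at 0.14 against a control maximum of 0.11. The mean was 0.267 ± 0.152 (SD, n = 6) with induction and 0.063 ± 0.028 (SD, n = 9) in the controls, a difference of 0.203. Among the 31267 events with a value in every library, 25 (0.08%) had all induced libraries above all controls and 14 (0.0448%) had them all below. Because this contrast chose the genes, nothing is read from that count.

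**Figure D1:**
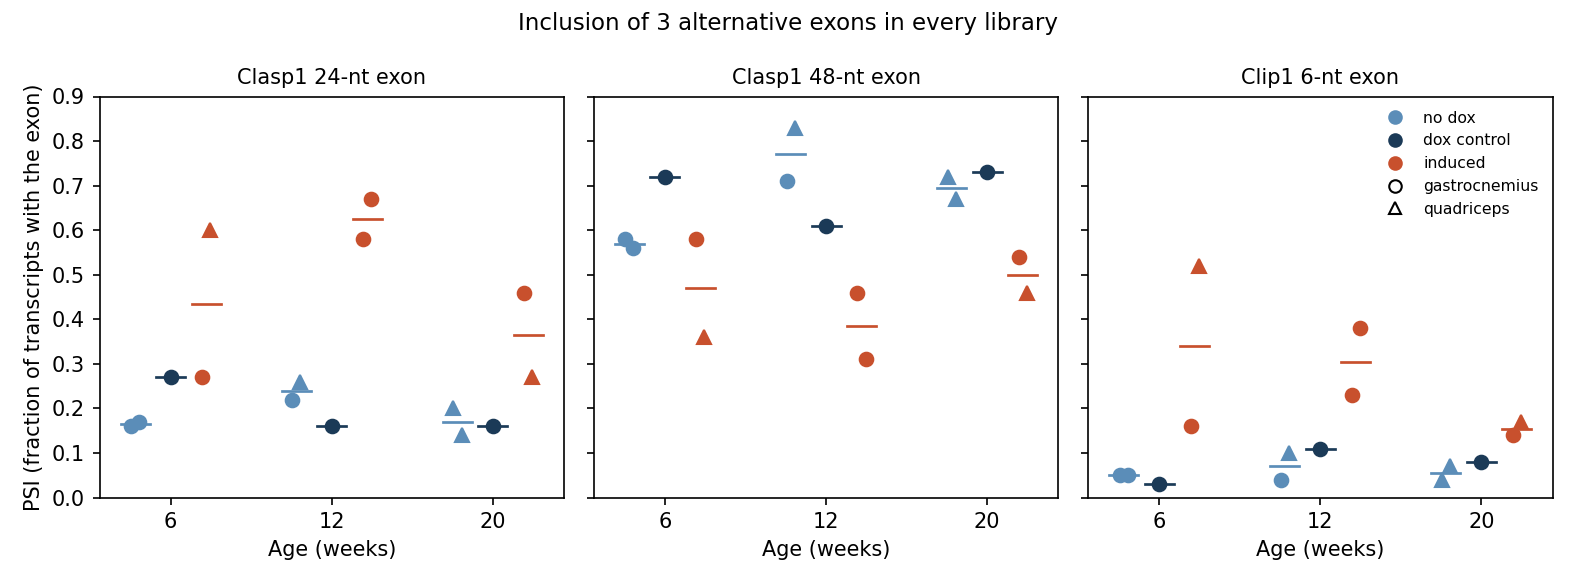
PSI of the Clasp1 24-nt exon, the Clasp1 48-nt exon and the Clip1 6-nt exon by age in weeks, with 1 point per library, coloured by arm and shaped by muscle, and a line at the mean of each arm and age. The Clip1 points of induced muscle lie between 0.14 and 0.52 and those of controls between 0.03 and 0.11, whereas for both Clasp1 exons some induced points lie within the control range.

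The 2 kinds of control gave similar levels of the 3 exons. The 24-nt exon of Clasp1 was at 0.192 ± 0.044 (SD, n = 6) without dox and 0.197 ± 0.064 (SD, n = 3) in the dox controls. The 48-nt exon was at 0.678 ± 0.099 and 0.687 ± 0.067, and the Clip1 exon at 0.058 ± 0.023 and 0.073 ± 0.040, in the same order. This contrast did not choose the genes and was tested with limma over all events, with p-values adjusted by the Benjamini-Hochberg method and a call at an adjusted p under 0.05 with a difference of at least 0.1. The fitted difference of dox control minus no dox was 0.019 (SE 0.085) for the Clasp1 24-nt exon, 0.015 (SE 0.079) for that of 48 nt and 0.076 (SE 0.064) for the Clip1 exon. This fit took in all libraries with terms for week and muscle, so induced libraries entered its muscle term and its SE. The fitted Clip1 value is larger than the gap between the plain means of 0.073 and 0.058. Of the 46 member events 0 were called and 0 had an unadjusted p under 0.05, beside 0 calls (0%) and 1118 events (3.58%) with such a p among all 31267. With limma on a logit scale 0 members were called as well. The standard errors show that differences of about the size seen in induced muscle at 20 weeks for Clip1 would have been hard to detect.

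The size of the induced difference was not the same at each age. For the 24-nt exon it was 0.235 at 6, 0.412 at 12 and 0.198 at 20 weeks. For the 48-nt exon it was -0.150, -0.332 and -0.207 at the same ages, and for the Clip1 exon 0.297, 0.222 and 0.092. Both Clasp1 exons thus differed most at 12 weeks, and the Clip1 exon differed least at 20 weeks. Whether the difference varied between ages was tested with a moderated F test in limma. Unadjusted p was 0.1919 for the 24-nt exon, 0.3362 for that of 48 nt and 0.3211 for the Clip1 exon, and each adjusted p was 1.00. Over the alternative settings the lowest adjusted p was 0.9638, 0.9268 and 0.5440, in the same order. Of the 46 members 0 were called, beside 1 of 31267 events (0.0032%), and 1 member had an unadjusted p under 0.05, beside 1293 events (4.14%). That member was a Clasp2 last-exon event described below. There were 2 induced libraries at each age, and at 6 weeks their spread was as wide as the change between ages, with Clip1 values of 0.16 and 0.52. The spread was narrower at the later ages. Clip1 values were 0.14 and 0.17 at 20 weeks, and 24-nt values were 0.58 and 0.67 at 12 weeks.

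Muscle and induction overlap in part, because the induced quadriceps libraries are replicate 2 at 6 weeks and replicate 2 at 20 weeks. Within gastrocnemius alone (4 induced, 6 controls) the induced difference was 0.305 for the 24-nt exon, -0.179 for that of 48 nt and 0.168 for the Clip1 exon. Within quadriceps alone (2 induced, 3 controls) it was 0.235, -0.330 and 0.275. The direction was therefore the same in each muscle, and whether the sizes differ was not tested. Muscle also overlaps with age and dox among the controls. All controls at 6 weeks and every dox control were gastrocnemius, and both no-dox libraries at 20 weeks were quadriceps. A muscle difference in controls thus rests on few libraries and cannot be fully told apart from age or dox. Among controls, quadriceps minus gastrocnemius, fitted with terms for week and arm, was 0.070 (SE 0.055) for the 24-nt exon, 0.118 (SE 0.089) for that of 48 nt and 0.018 (SE 0.027) for the Clip1 exon. Of the 46 members 0 were called in this comparison, as were 0 of all 31267 events (0%).

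Unadjusted p was under 0.05 between the muscles for 3 members, beside 1818 of all events (5.81%). They were a 17-nt exon of Clasp2 (fitted difference 0.038, SE 0.012), a Clasp1 exon of 24 nt at 118512705 (0.076, SE 0.028) and a 21-nt exon of Clip1 (0.014, SE 0.006). The limma adjusted p was 0.856 for each. All 3 exons were included in few transcripts, at most 0.15 in any library. Between 20 and 6 weeks of age in controls, the 24-nt exon differed by -0.080 (SE 0.055), the 48-nt exon by 0.008 (SE 0.089) and the Clip1 exon by 0.008 (SE 0.027). Because age and muscle overlap among the controls, these fitted age differences depend on the muscle term. For the 48-nt exon the plain control means at 6 and 20 weeks lay further apart than the fitted 0.008. Of the members 0 were called and 0 had an unadjusted p under 0.05, beside 0 calls (0%) and 1609 events (5.15%) in all.

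**Figure D2:**
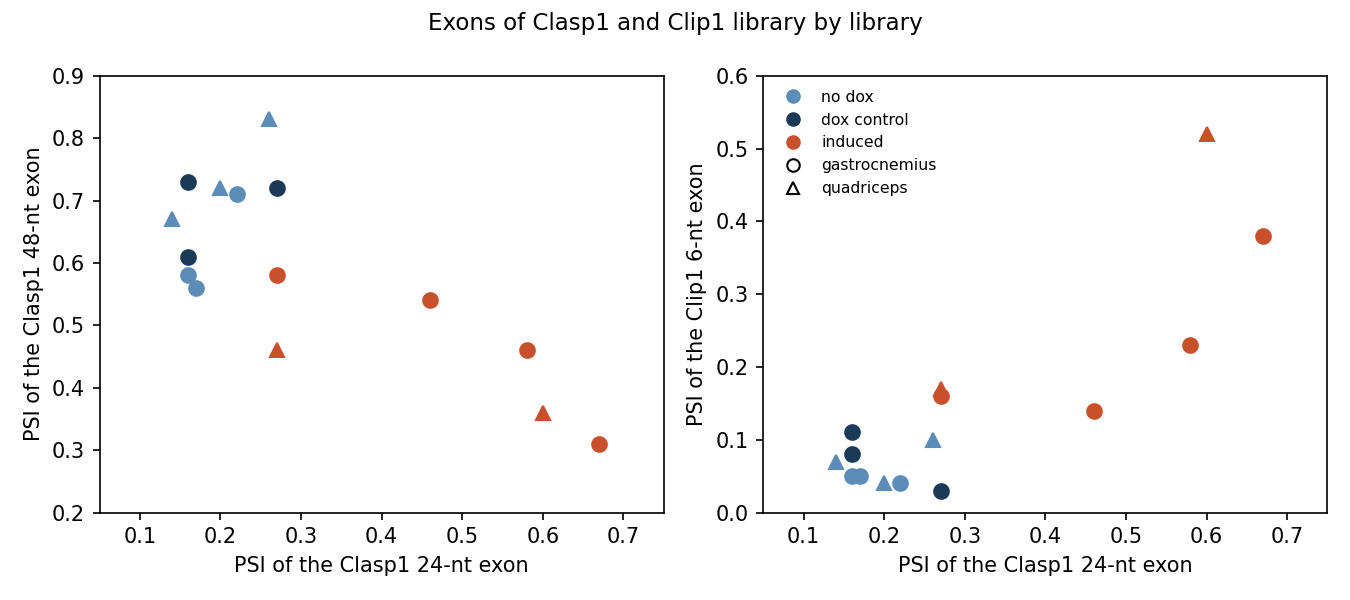
PSI of the Clasp1 24-nt exon on the x axis against PSI of the Clasp1 48-nt exon (left) and of the Clip1 6-nt exon (right), with 1 point per library, coloured by arm and shaped by muscle. Induced libraries spread from 0.27 to 0.67 along the x axis, with the lowest 48-nt value of 0.31 at the highest 24-nt value, and the controls stay between 0.14 and 0.27.

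The induced libraries differed among themselves, and the 3 exons were compared library by library within each arm, which gave 6 relations. Among the 6 induced libraries Pearson's r between the 24-nt and the 48-nt exon was -0.761 (exact permutation p = 0.089, adjusted 0.133) and Spearman's rho was -0.838 (exact permutation p = 0.044, adjusted 0.133). Without the 2 libraries farthest from the median 24-nt value, r was -0.948 over 4 libraries. Libraries with more of the 24-nt exon thus had less of the 48-nt exon, although this did not pass the adjustment.

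For the Clip1 exon, r with the 24-nt exon in induced libraries was 0.714 (exact permutation p = 0.072, adjusted 0.133) with rho 0.754 (exact permutation p = 0.106, adjusted 0.211), and r was 0.706 without the 2 extreme libraries. With the 48-nt exon r was -0.836 (exact permutation p = 0.056, adjusted 0.133) with rho -0.870 (exact permutation p = 0.033, adjusted 0.133), and r was -0.922 without the 2 extreme libraries. None of these passed after adjustment, and the induced libraries differ in age and muscle.

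In the 9 controls r over all of them had the opposite sign for each pair, although none passed the adjustment. There r between the 24-nt and 48-nt exons was 0.665 (exact permutation p = 0.053, adjusted 0.133) with rho 0.468 (exact permutation p = 0.206, adjusted 0.247). It was 0.405 without the 2 extreme libraries. For the 24-nt and Clip1 exons r was -0.244 (exact permutation p = 0.549, adjusted 0.658) with rho -0.504 (exact permutation p = 0.169, adjusted 0.247), and -0.604 without the 2 extreme libraries. For the 48-nt and Clip1 exons r was 0.153 (exact permutation p = 0.681, adjusted 0.681) with rho 0.046 (exact permutation p = 0.908, adjusted 0.908), and -0.067 without the 2 extreme libraries. The difference between the arms in these relations was not tested.

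**Figure D3:**
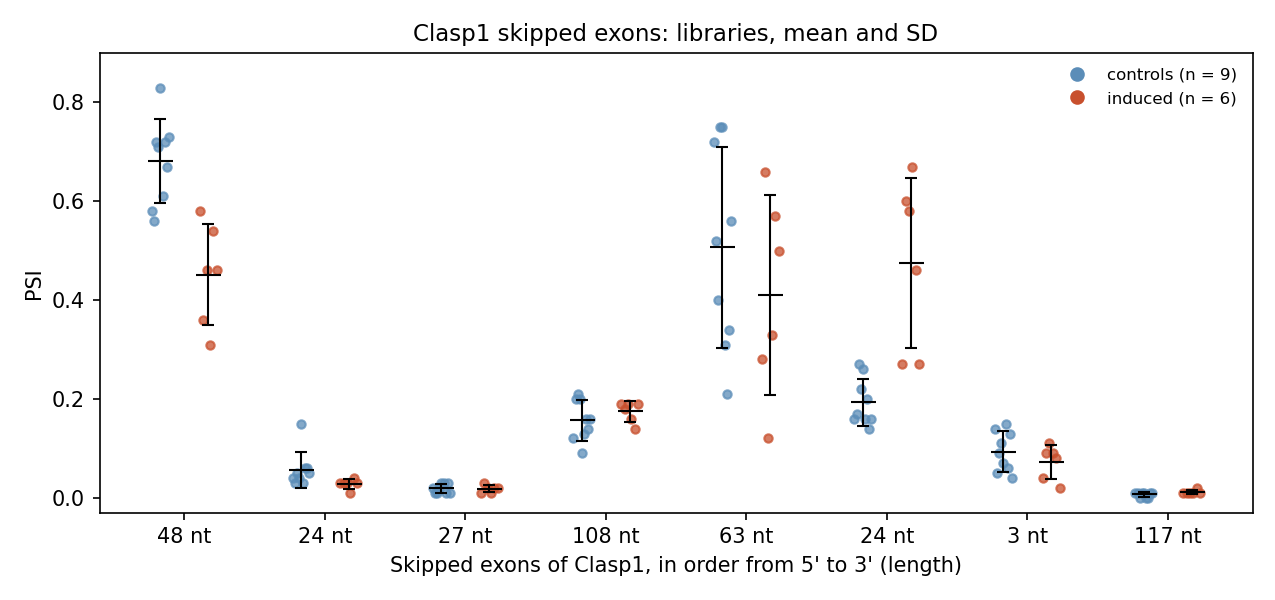
PSI of the 8 skipped exons of Clasp1 in their order along the gene, with 1 point per library and lines at the mean and 1 SD, for 9 control and 6 induced libraries. The 48-nt exon is lower in induced muscle and the 24-nt exon drawn after the 63-nt exon is higher, the 63-nt exon spreads from 0.12 to 0.75 over all libraries, and the other 5 stay at or below 0.21.

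Clasp1 has 8 skipped exons in the table, and the other 6 differed by less than 0.1 between induced and control muscle. Another 24-nt exon (118512705 to 118512728) begins 482 bases after the 48-nt exon ends, between the same flanking exons, and was at 0.028 ± 0.010 (SD, n = 6) with induction and 0.057 ± 0.037 (SD, n = 9) in the controls. The mutually exclusive event that sets it against the 48-nt exon was at 0.953 ± 0.023 (SD, n = 6) and 0.970 ± 0.007 (SD, n = 9). The lower level of the 48-nt exon in induced muscle was thus not accompanied by more of its 24-nt neighbour.

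A 63-nt exon (118536135 to 118536197) varied widely. It was at 0.410 ± 0.202 (SD, n = 6) with induction and 0.507 ± 0.204 (SD, n = 9) in the controls, and its difference of -0.097 is the largest below the 0.1 used here to pick exons for full description. The exon before it in this event is itself a skipped exon of 108 nt (118531978 to 118532085) at 0.175 ± 0.021 (SD, n = 6) and 0.157 ± 0.041 (SD, n = 9). The week 12 values of the 63-nt exon were 0.75, 0.75 and 0.31 in controls and 0.12 and 0.33 in induced muscle. At 20 weeks they were 0.21, 0.34 and 0.56 in controls and 0.57 and 0.50 in induced muscle. The induced values were thus below most controls at 12 weeks and among the higher ones at 20 weeks, and limma gave an unadjusted p of 0.134 for variation between ages.

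The remaining Clasp1 exons were nearly always skipped. A 3-nt exon (118547656 to 118547658) was at 0.072 ± 0.034 (SD, n = 6) with induction and 0.093 ± 0.041 (SD, n = 9) in the controls. A 27-nt exon was at 0.018 and 0.019, and a 117-nt exon at 0.012 and 0.007. An alternative 5' splice site, 3 nt from its partner at the exon before the 3-nt exon, had a PSI of 0.023 and 0.031.

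The 5 first-exon events of Clasp1 differed by -0.054 to 0.016 between the arms, which leaves the use of its starts close to that of controls in induced muscle. Of its 3 last-exon events, those against the uc007cif and uc007cij ends were at or above 0.93 in every library. The third, uc007cid against uc007cie, had a mean PSI of 0.128 ± 0.098 (SD, n = 6) with induction and 0.052 ± 0.041 (SD, n = 9) in the controls. It was 0.25 in induced replicate 2 at 6 weeks, and 0.22 and 0.17 in the induced libraries at 20 weeks, while the other induced libraries were at 0.01, 0.06 and 0.06. The control range was 0.03 to 0.16, so the arms overlapped.

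**Figure D4:**
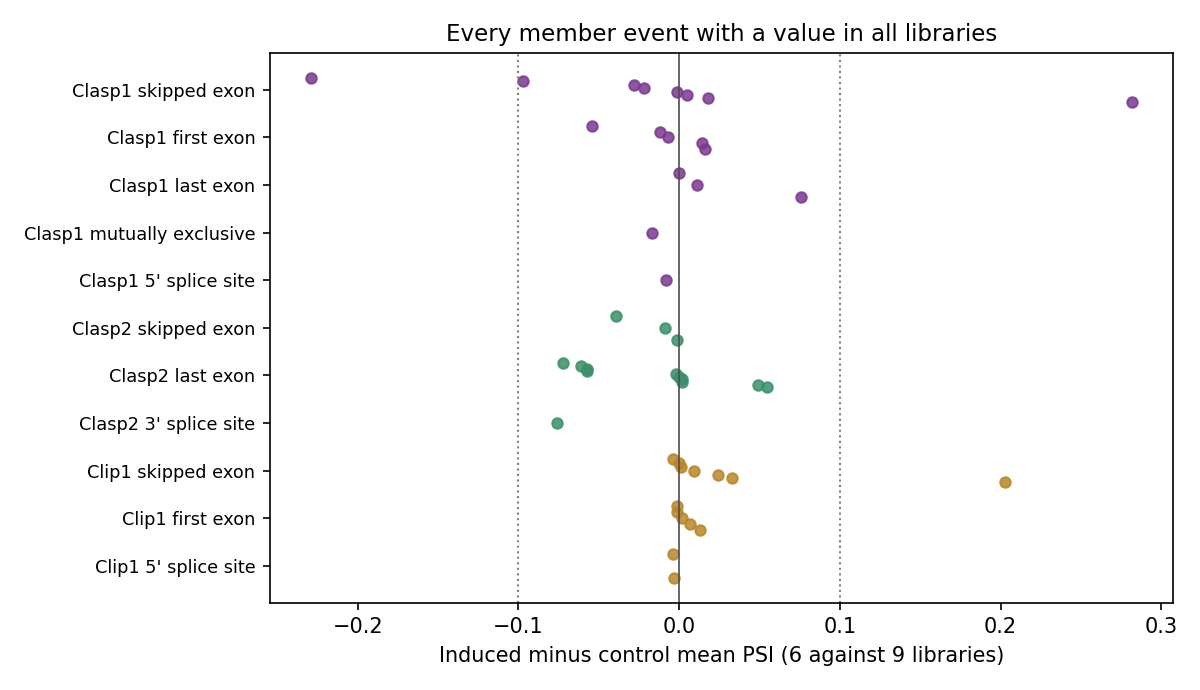
Difference in mean PSI, induced minus control, for each of the 46 member events with a value in all libraries, by gene and event type, with dotted lines at -0.1 and 0.1. The skipped exons of 48 nt and 24 nt in Clasp1 and of 6 nt in Clip1 lie outside the lines at -0.229, 0.282 and 0.203, and the other 43 events lie between them.

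Clasp2 showed no event with a difference of 0.1 or more. The median absolute difference was 0.044 over its 14 events with values in all libraries, against 0.017 in Clasp1, 0.004 in Clip1 and 0.013 over all 31267 events. Its 3 skipped exons were close to all or none. A 3-nt exon (chromosome 9, 113887045 to 113887047, plus strand) was included at 0.907 ± 0.041 (SD, n = 6) with induction and 0.946 ± 0.028 (SD, n = 9) in the controls. A 63-nt exon (113875265 to 113875327) was at 0.018 and 0.019. A 17-nt exon (113841159 to 113841175) was at 0.038 and 0.048. An alternative 3' splice site with 2 positions 2 nt apart was at 0.302 ± 0.108 (SD, n = 6) with induction and 0.378 ± 0.162 (SD, n = 9) in the controls, from 0.14 to 0.68 over all libraries.

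The Clasp2 first exons had values in 14, 13 and 9 libraries and were left out of the tests on events with all values. The first 2 entered only the alternative with at least 12 libraries, where 0 members were called. In the event of uc009rws and uc009rwt against uc009rwq and uc009rwr, PSI was 0.57 in no-dox replicate 2 and 0.57 in the dox control at 6 weeks. It was 0.69 in induced replicate 2 at 6 weeks, 0.54 in induced replicate 1 at 12 weeks and 0.66 in no-dox replicate 2 at 20 weeks. The other 9 libraries with a value lay between 0.03 and 0.18. High and low values thus occurred in no-dox and in induced libraries, in both muscles, and the step between 0.18 and 0.54 did not follow an arm or an age.

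The Clasp2 last exons gave 10 events, and a single library stood apart in those that name uc009rwr. The 12-week dox control was at 0.47, 0.56, 0.62 and 0.88 in these 4 events. In the first 3 of them the other 14 libraries reached at most 0.21, 0.13 and 0.18, and in the fourth the range of the others was 0.36 to 0.76. Dox control minus no dox was 0.196 (SE 0.096), 0.157 (SE 0.078) and 0.190 (SE 0.103) for the events of uc009rwr with uc009rws, with uc009rwq and uc009rwt, and with uc009rwu, each with a limma adjusted p of 1.00. The 3 dox controls thus did not share this shift, since the values at 6 and 20 weeks were 0.07 or lower in those events.

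The last-exon event of uc009rws against uc009rwq and uc009rwt was the member with the smallest p for variation between ages (limma F test, unadjusted p of 0.0022 and adjusted p of 0.992). Its PSI at 6 weeks was 0.20, 0.16 and 0.12 in controls and 0.10 and 0.22 in induced muscle. At 12 weeks it was 0.12, 0.07 and 0.12 in controls and 0.37 and 0.34 in induced muscle, and at 20 weeks 0.32, 0.37 and 0.11 in controls and 0.13 and 0.23 in induced muscle. Induced muscle was above controls at 12 weeks, with 1 library below and 1 above them at 6 weeks, and within their range at 20 weeks. The 20-week no-dox libraries with the high values are both quadriceps, and the induced libraries at 12 weeks are both gastrocnemius.

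**Figure D5:**
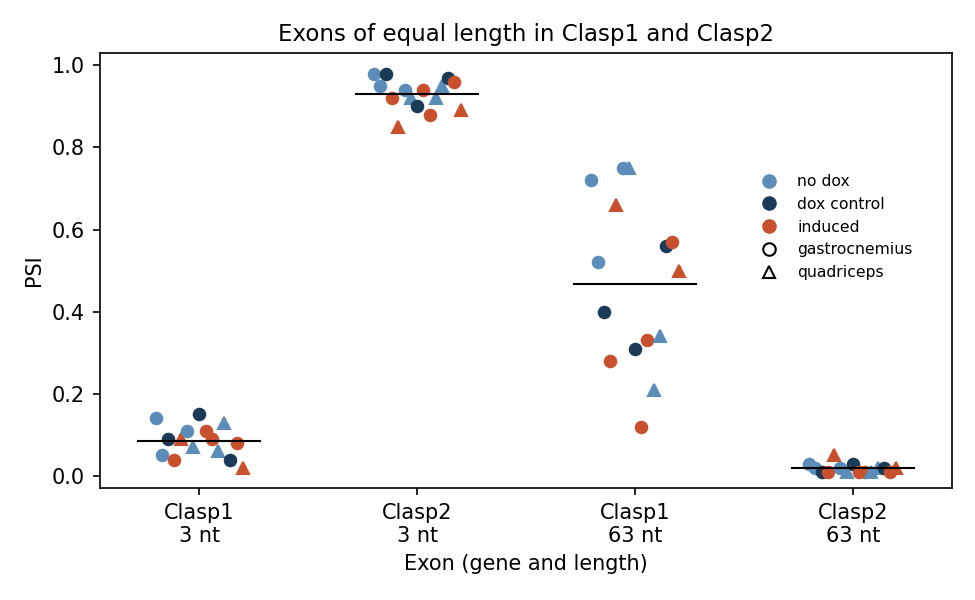
PSI of the 3-nt and the 63-nt exon of Clasp1 and Clasp2 in all 15 libraries, with 1 point per library, coloured by arm and shaped by muscle, and a line at the mean. The 3-nt exon lies at 0.02 to 0.15 in Clasp1 and 0.85 to 0.98 in Clasp2, and the 63-nt exon at 0.12 to 0.75 in Clasp1 and 0.01 to 0.05 in Clasp2.

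Clasp1 and Clasp2 have 2 skipped exons that match in length and in their neighbours, and the genes differed in how far each was included. The 3-nt exon lies between exons of 64 and 164 nt in both genes. Its inclusion over all 15 libraries was 0.085 ± 0.039 (SD) in Clasp1 and 0.930 ± 0.038 (SD) in Clasp2, and it was higher in Clasp2 in 15 of 15 libraries by 0.845 ± 0.051 on average. The 63-nt exon follows an exon of 108 nt in both genes and precedes exons of 104 and 107 nt. In Clasp1 the 108-nt exon is itself mostly skipped, at 0.175 with induction and 0.157 in the controls. The Clasp1 value of the 63-nt exon thus counts only transcripts that hold the 108-nt exon. The 63-nt exon was included at 0.468 ± 0.202 (SD) in Clasp1 and 0.019 ± 0.011 (SD) in Clasp2. It was higher in Clasp1 in 15 of 15 libraries by 0.449 ± 0.198. The match is by length and order alone, since exon sequences were not analysed here. These pairs were picked after their values had been seen, and no test was made.

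Clip1 differed between the arms in the 6-nt exon and little elsewhere. Its other 6 skipped exons differed by at most 0.033 between the arms. A 105-nt exon (123635174 to 123635278) had that difference, with 0.180 ± 0.032 (SD, n = 6) with induction and 0.147 ± 0.036 (SD, n = 9) in the controls. A 117-nt exon (123627294 to 123627410) was at 0.785 ± 0.062 and 0.761 ± 0.055. Exons of 33 and 198 nt were at 0.965 and 0.983 in induced muscle. Exons of 21 and 2268 nt were nearly always skipped. The exon after the 33-nt exon in its event is the 105-nt exon, which was itself mostly skipped. The 33-nt value thus counts only transcripts that hold the 105-nt exon.

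The 5' splice sites of Clip1 were at nearly the same level in both arms. A pair of sites 228 nt apart had a PSI of 0.517 in induced and 0.520 in control libraries, and a pair 80 nt apart 0.967 and 0.971. The 5 first-exon events of Clip1 differed by at most 0.013. The 6-nt exon is thus the only one of the 14 Clip1 events whose arms did not overlap or differed by 0.1 or more.

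Over the 46 members with values in all libraries, 2 events were higher and 1 was lower by at least 0.1 in induced muscle, which is 6.52% of them. The share over all 31267 events was 3.95%, with 587 higher and 647 lower. Because the genes were chosen through this contrast, nothing follows from the higher share. The median absolute difference was 0.013 in the members and 0.013 over all events.

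Many skipped exons of the 3 genes are short, although their lengths ran from 3 to 2268 nt. The genes were chosen through differences in Clasp1 and Clip1, and the exons of 24, 48 and 6 nt that differed are among those counted. Their lengths therefore enter the shares below, which are not independent of the choice. Of 18, 17 have a length that is a multiple of 3, the exception being the 17-nt exon of Clasp2. This is 94.4% against 5570 of 11680 (47.7%) over all skipped exons, whether or not every library had a value. Of the 18, 8 are at most 30 nt long (44.4%), against 559 (4.79%) over all, and the median length was 40.5 nt against 105 nt. Such a length corresponds to whole codons where an exon is coding, and coding frames were not examined here. The exons that overlap or share flanks within a gene are not independent of each other, and no test was made.

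The events of other genes whose PSI most resembled that of the Clasp1 24-nt exon were found by the absolute Pearson's r over the 15 libraries among 14330 events with an SD of at least 0.05. They were a mutually exclusive pair in Dnm2, a dynamin that cuts membrane necks (r = 0.940), and the 54-nt exons of the splicing factors Mbnl1 (0.939) and Mbnl2 (0.938). Next came Ldb3, whose product sits in the Z-disc, with an exon of 186 nt (0.923), and a mutually exclusive pair in 4833439L19Rik (0.922). Within the 6 induced libraries alone r was 0.986, 0.892, 0.90, 0.827 and 0.881, and within the 9 controls -0.090, -0.000, -0.105, 0.095 and 0.512. The likeness among the first 4 thus lay in the induced libraries and in the step between the arms. These events were selected for their likeness, and the libraries share their arms, ages and muscles.

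Other microtubule genes were followed through a list of 60, made with earlier results of these data known, that holds plus-end, minus-end and lattice proteins and leaves the members out. Of these, 48 genes had 293 events with values in all libraries. Induced against control, 0 of the 293 events were called by limma, beside 2 of 31267 (0.0064%), and 0 were called on a logit scale. An unadjusted p under 0.05 was found for 26 (8.87%), of which 11 were higher and 15 lower, beside 1958 events (6.26%) over all, and 28 on the logit scale. The smallest adjusted p was 0.2805. At least 0.1 separated the arms in 3 higher and 7 lower events, 3.41% of the list, and the median absolute difference was 0.011.

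The 3 events with the smallest p were as follows. A 54-nt exon of Mapt, which encodes the microtubule-lattice protein tau (chromosome 11, 104307881 to 104307934, plus strand), was at 0.720 ± 0.114 (SD, n = 6) with induction and 0.899 ± 0.041 (SD, n = 9) in the controls (limma difference -0.179, SE 0.036, adjusted p = 0.2805). The induced range of 0.53 to 0.84 overlapped the control range of 0.81 to 0.94. Without induced replicate 1 at 6 weeks the difference was -0.225 and the exon was called with a limma adjusted p of 0.0105. A last-exon event of Map4, a lattice protein abundant in muscle, was at 0.010 ± 0.006 (SD, n = 6) and listed at 0 in every control (adjusted p = 0.318 by limma). An alternative 5' splice site of Tacc2 was at 0.898 ± 0.063 (SD, n = 6) and 0.972 ± 0.015 (SD, n = 9), with a limma adjusted p of 0.3455.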

How the data were processed

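Per the labels' protocols, poly-A RNA of mouse skeletal muscle was read from both ends over 100 bases. The deposited table holds a fraction (PSI, printed to 2 decimals) for each splicing event and library, and its own name calls the values MISO output. TopHat and the mouse build mm10 are named per the submitters' processing notes. For versions, annotation and read minimum, the sources used here say nothing. Without read counts the depth is unknown, and intervals or floors based on depth were not computed. Coordinates are those of the event names, counted from 1.

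Columns were matched to libraries by the identifier in each title. The table holds 0 columns of other samples. Events named by coordinates were taken by gene symbol, and first and last exons by gene ID. By this rule 15 first- or last-exon events with the symbol Clip1 but another gene's ID, and 1 tandem event with that symbol outside the gene, were left out. The IDs brought in 8 events of Clasp1, 6 of Clasp2 and 5 of Clip1 that lack the symbol.

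The 31267 events with values in all libraries were fitted with limma 3.58.1 in R 4.3.3 (variance trend, robust moderation, two-sided, Benjamini-Hochberg over all events), and tested on simulated data first. Fits held week, arm and muscle, and those for muscle and age used the 9 controls. Alternatives were a logit scale with PSI held within 0.01 to 0.99, no muscle term, a mean PSI of 0.05 to 0.95, no variance trend, events with at least 12 libraries, a replicate block and leaving out each library. Exact permutation tests used scipy 1.17.1. Libraries are not tied to animals, so p-values measure the spread between libraries.

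Members and lists were chosen with earlier results of these data known. Values in every library are given for the 24-nt and 48-nt exons of Clasp1, the 6-nt exon of Clip1 and any member that differed by at least 0.1. Of the microtubule list the 3 smallest p-values are named, and of the events most like the Clasp1 24-nt exon the first 5. The 63-nt exon of Clasp1, the Clasp2 first exons and the last-exon events with values in single libraries were chosen after their values were seen. Exon and intron sequences were not analysed here.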

Additional observations from a re-analysis of the deposited data

Results flagged for a closer look

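In 40 groups of libraries (the 6 induced or the 9 controls for a member event), the highest or lowest library was set against the rest by Dixon's ratio of gap to range. Groups with a range under 0.1 PSI had been left out beforehand. The rule is set to pick out about 1 group in 20 by chance, and 9 were picked out. That rate does not hold for groups kept for a wide range or for events that share an end, so nothing is read from the number.

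In the Clasp2 last-exon events, the 12-week dox control was far above the other controls, with 0.62 for uc009rwr against uc009rwu, 0.56 for uc009rws against uc009rwr and 0.47 for uc009rwq and uc009rwt against uc009rwr. In the first 2 of these events the 20-week induced replicate 2, a quadriceps library, was far above the other induced libraries at 0.17 and 0.13. These events share the uc009rwr end, so they are not independent of each other.

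In Clasp1, the 24-nt exon at 118512705 was at 0.15 in the 12-week no-dox replicate 2, against 0.03 to 0.06 in the other controls. The last-exon event of uc007cid against uc007cie was at 0.16 in the 20-week no-dox replicate 2, against 0.03 to 0.05 in the other controls. Both libraries are quadriceps. The first-exon event of uc007cii against uc007cid, uc007cie and uc007cif was at 0.45 in the 12-week induced replicate 1, below the other induced libraries. The first-exon event of uc007cii against uc007cig was at 0.62 in the 20-week induced replicate 2, above them. The Clasp1 24-nt exon at 118541675, the Clasp1 48-nt exon and the Clip1 6-nt exon had no library picked out. The controls of the Clip1 exon, at 0.03 to 0.11, were under the minimum range and were not examined.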

How the results depend on the processing

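The induced difference kept its direction for the 3 exons under each alternative run. It moved by more than the spread between libraries for 1 of them, the Clasp1 48-nt exon, at -0.330 in quadriceps alone. Leaving out each library in turn gave 0.243 to 0.323 for the 24-nt exon, -0.255 to -0.201 for the 48-nt exon and 0.153 to 0.229 for the Clip1 exon. The 4 comparisons tested on the members had 0 calls under each alternative that could be fitted. The microtubule list had 0 to 1 calls with a library left out, the 1 being Mapt without induced replicate 1 at 6 weeks, and the cause was not tested. Replicate numbers are shared across arms. Same-numbered induced and no-dox libraries did not deviate together (r = 0.010, -0.012 and 0.015 at 6, 12 and 20 weeks). At each age either the induced or the no-dox libraries differ in muscle, but not both, so the check cannot exclude a pairing. With a replicate block, which leaves out the dox controls, the differences were 0.283, -0.227 and 0.208. By arithmetic these equal the differences from the no-dox libraries alone, so they are no separate check. In the fits with the block, 0 members and 0 list events were called. The block could not be fitted for dox control against no dox, nor the muscle comparison without its own term. The comparisons within controls have 4 residual degrees of freedom, and read depth is unknown, so small differences could have been missed.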

Other observations

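In the Clip1 first exons, PSI was near 0.01 for uc008zoc against uc008zoa and uc008zob, near 0.99 for uc008zoc against uc008zod, and between 0.39 and 0.49 for uc008zod against uc008zoa and uc008zob, in every library. These values cannot all be the share of the form named first. Which form the PSI of a first-exon or last-exon event counts was not settled from the table, and no direction of use is read from such events.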
